A study of Homo sapiens and Mus musculus with 10 samples.

Results

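The mitochondrial ribosomal protein genes were followed through glucose deprivation (GD), thapsigargin (TG) and UFD1s deficiency in HEK293T cells, a human embryonic kidney line. Members were the rows of the 2 HEK293T count tables whose symbol is MRPL or MRPS followed by a digit, leaving out antisense and pseudogene symbols. This gave 78 genes, 49 MRPL (large subunit) and 29 MRPS (small subunit), among the 16120 rows of the first table. Of these, 73 also had a row in the second table (11976 rows), and 68 (41 MRPL and 27 MRPS) were counted on the same RefSeq transcript in both. Each gene has 1 row per table, named by 1 RefSeq transcript. The values are raw counts of reads for each RefSeq transcript, so a row may not hold all reads of its gene. How reads shared by several transcripts of a gene were assigned is not known here. These points limit what the level of a row and any comparison of levels between tables mean.

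The study sequenced rRNA-depleted RNA of cultured cells. The stress set holds 1 library each of WT HEK293T cells under mock treatment, GD for 24 h, and TG at 300 nM for 6 h. TG inhibits the SERCA calcium pump and so drains calcium from the endoplasmic reticulum (ER). The genotype set holds 1 library each of WT mock, WT GD for 24 h, UFD1s-deficient mock and UFD1s-deficient GD for 24 h. UFD1 is a cofactor of the p97 ATPase, which extracts ubiquitinated proteins; how the UFD1s-deficient cells were made, and whether they are 1 clone, is not given in the sources used here. Reads of UFD1 check little: its row of the genotype table (transcript NM_005659.6) held 168 mock and 107 GD reads in WT cells, against 199 and 193 in deficient cells. It was thus not lower in the libraries labelled deficient, and whether this row holds the UFD1s form is not given.

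Mammalian mitochondria translate the few respiratory chain proteins that their own genome encodes on a dedicated ribosome. Its RNAs come from the mitochondrial genome, but all its proteins are encoded in the nucleus, made in the cytosol and imported. About as many of these proteins descend from the bacterial ribosome as were added later in the mitochondrial lineage, and both subunits carry both kinds. In the standard names of the RefSeq synonyms, u or b marks a bacterial homolog and m a name used for mitochondria alone. By these names 44 members are called bacterial homologs below and 31 mitochondria-specific, and 3 (MRPS24, MRPS28 and MRPS36) had no such name. The classes go by name alone, and genes of like symbol can part: MRPS18C is bS18m, but MRPS18A is mL66 and MRPS18B is mS40. Some symbols mislead: MRPS30 (mL65) and MRPS18A (mL66) sit in the large subunit, and MRPS36 is now KGD4, a protein of the alpha-ketoglutarate dehydrogenase complex. Unless the place in the ribosome is named, large and small subunit below go by symbol.

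The member genes lie on 21 chromosomes, so as a group they share no locus, though some are neighbours, as described below for MRPS11 and MRPL46. MRPL28 and MRPS34 both lie on chromosome 16. Promoters of the members share short sequences. RefSeq promoter windows (build GRCh38.p14, 250 bases before to 50 after the gene start, the first listed window per gene) were found for 70 of the 78 genes. Stretches from 140 bases before to 30 after the start are shown for genes that the results below turn on, so picked by their values. These are the member with the largest fall under GD (MRPL4), members that rose under GD (MRPL45 and MRPS30), and members with high TG ratios (MRPL54 and MRPL46). MRPL28 and MRPS34, which fell in every GD pair, are shown too. Both were lower in deficient than in WT libraries of the genotype set. Neither was called for genotype in the fit over both sets. The stretches run 5′ to 3′ on the gene's strand. Capitals mark CCGGAAG (ETS-type), AAGATGGCG (YY1-type) and CACGTG (E-box), on either strand.

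MRPL4 (chr19:10251811-10251980, plus strand): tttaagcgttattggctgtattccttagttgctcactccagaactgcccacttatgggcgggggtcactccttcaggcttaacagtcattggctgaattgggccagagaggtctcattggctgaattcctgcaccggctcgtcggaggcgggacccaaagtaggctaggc

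MRPL28 (chr16:370509-370678, minus strand): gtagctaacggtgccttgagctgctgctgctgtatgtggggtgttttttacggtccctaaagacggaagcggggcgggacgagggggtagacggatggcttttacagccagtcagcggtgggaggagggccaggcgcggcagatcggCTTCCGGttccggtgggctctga

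MRPS34 (chr16:1773105-1773274, minus strand): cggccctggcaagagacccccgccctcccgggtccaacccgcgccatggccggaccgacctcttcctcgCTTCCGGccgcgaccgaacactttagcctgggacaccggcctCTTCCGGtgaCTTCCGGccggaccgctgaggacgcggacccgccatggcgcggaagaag

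MRPL45 (chr17:38297028-38297197, plus strand): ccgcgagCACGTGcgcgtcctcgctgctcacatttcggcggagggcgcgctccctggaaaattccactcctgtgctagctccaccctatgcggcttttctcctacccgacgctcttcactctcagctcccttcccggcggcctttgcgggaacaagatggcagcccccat

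MRPS30 (chr5:44808807-44808976, plus strand): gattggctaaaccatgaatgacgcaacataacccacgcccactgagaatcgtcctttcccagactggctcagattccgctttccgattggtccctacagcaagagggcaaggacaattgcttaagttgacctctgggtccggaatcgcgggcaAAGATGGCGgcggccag

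MRPL54 (chr19:3762542-3762711, plus strand): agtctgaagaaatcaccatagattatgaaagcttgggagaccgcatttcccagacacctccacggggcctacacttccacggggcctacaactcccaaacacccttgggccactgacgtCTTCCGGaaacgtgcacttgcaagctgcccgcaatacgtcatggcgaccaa

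MRPL46 (chr15:88467359-88467528, minus strand): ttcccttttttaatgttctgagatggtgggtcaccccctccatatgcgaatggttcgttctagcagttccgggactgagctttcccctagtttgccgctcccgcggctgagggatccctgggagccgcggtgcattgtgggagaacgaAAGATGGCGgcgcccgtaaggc

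The ETS-type letters CCGGAAG, searched on both strands, occurred in 29 of the 70 windows (41.4%), against 19.6% of the 7849 windows of genes in both tables and 10.7% of all 27305 windows. The share was 40.5% for MRPL and 42.9% for MRPS genes. The YY1-type letters AAGATGGCG occurred in 13 windows (18.6%), against 4% of the genes in both tables and 1.85% of all windows. The last 3 letters of an ETS-type match can be the first 3 of a YY1-type match, but no such overlap occurred among the members. The 4 windows that held both, those of MRPL38, MRPL52, MRPS10 and MRPS18A, held them at separate places. The YY1-type matches were placed alike: 10 of the 14 stood on the gene's own strand between 7 and 36 bases after the start, as in MRPS30 and MRPL46 above. Cytosolic ribosomal protein genes held ETS-type letters in 33.3% and YY1-type letters in 8.7% of 69 windows, and nuclear-encoded respiratory chain genes in 25.9% and 13% of 54.

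Other motifs were near the share of the genes in both tables or below it. The NRF1-type letters CGCATGCG (a factor known for driving nuclear genes of mitochondria) were in 3 windows (4.29%, against 3.82% of genes in both tables), those of MRPL17, MRPL22 and MRPS18C. The E-box CACGTG was in 7 windows (10%, against 10.5%), and the ATF4-type letters TGATGCAA were in none (0%, against 0.382%). Of all 27305 windows 2.19% held the NRF1-type letters, 7.43% the E-box and 0.923% the ATF4-type letters. These matches describe the letters of the windows and are no measurement of binding. Under GD the median log2 change was -0.04 for the 26 tested members with ETS-type letters and -0.12 for the 35 without them.

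**Figure D1:**
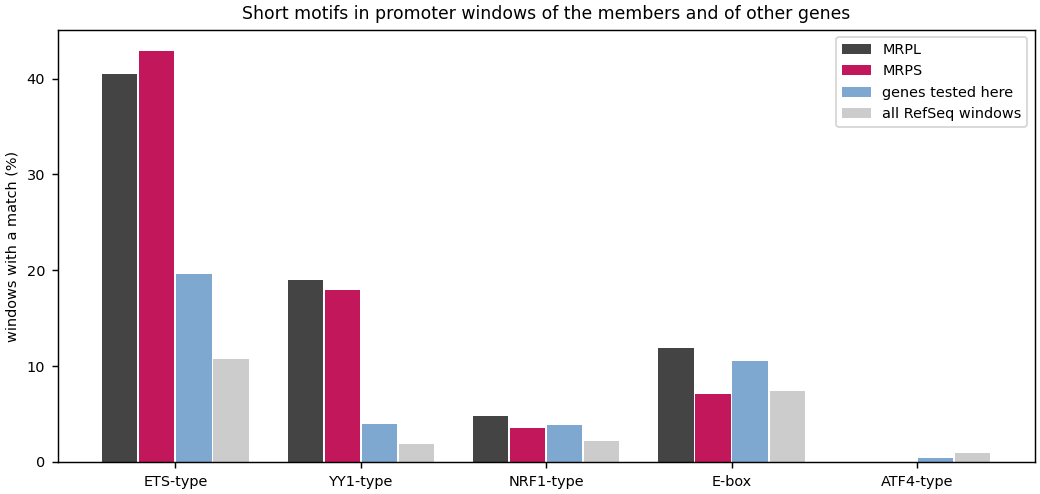
Share of promoter windows (percent, vertical axis) that hold each of 5 short motifs, for MRPL genes, MRPS genes, the genes in both tables and all RefSeq windows. ETS-type and YY1-type matches stand at 40.5% to 42.9% and 17.9% to 19% of member windows, and the other 3 motifs stay at or under 11.9%.

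The HEK293T tables summed to 12771607 to 19024327 reads per library in the stress set and 11461365 to 13110714 in the genotype set. HEK293T markers with a row (5 or 6 of 7, with VIM, KRT8 and KRT18) summed to 984 to 1837 scaled CPM (counts relative to the TMM-adjusted library size within a table). Not all of them were detected: in the stress set 1 of the 6 had 0 reads in mock and in TG. Under GD in that set the lowest of the 6 held 2 reads. Markers of liver, blood, fibroblast and endothelial cells summed to 0.898 to 7.54, from 4 of 8 genes with a row in the stress set and 1, LUM, in the genotype set. PAX2, a kidney lineage marker, had no row. Stress genes responded: 5 of 6 integrated stress response genes and 6 of 6 ER chaperone genes rose under GD, and 5 and 6 of them were past 2-fold under TG. In bulk RNA, fewer cells of a kind and less RNA per cell cannot be told apart.

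Together the 68 shared transcripts took 5055 CPM (unadjusted) of the stress-set mock library, 4119 under GD and 4806 under TG. In the genotype set WT cells had 5407 in mock and 5327 under GD, and deficient cells 5588 and 5392. The sum was lowest in the stress-set GD library. In that library the list of noncoding and nuclear RNAs, which there includes the rRNA precursor RNA45SN5, took 151570 scaled CPM against 88554 in its mock library, and the part of this in the lower sum was not tested. Reads of large-subunit transcripts exceeded those of small-subunit transcripts by a ratio of 1.59 in the stress-set mock, 1.41 in its GD and 1.54 in its TG library. In the genotype set the ratio went from 1.59 in mock to 1.55 under GD in WT cells and from 1.64 to 1.59 in deficient cells.

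Levels of the rows differed widely between members. Each ribosome holds 1 copy of nearly all of these proteins, but a row may not hold all reads of its gene. Per kilobase of transcript, the highest in the genotype set were MRPL12 with 248 scaled CPM per kb, MRPL37 with 226 and MRPL3 with 208, and in the stress set MRPL3 with 226, MRPL12 with 176 and MRPL37 with 162. MRPL12 makes the L7/L12 stalk that recruits translation factors and is present in several copies per ribosome. MRPL3 is a core protein near the catalytic centre, and MRPL37 is mitochondria-specific. At the other end of the genotype set, MRPS33 had 0.522 scaled CPM per kb and MRPS12, the decoding centre protein, 1.36. In the stress set these had 0.536 and 0.679, and the lowest were MRPL42 with 0.017 and MRPL49 with 0.115. The stress-set rows of MRPL42 and MRPL49 are named by noncoding RefSeq transcripts. On another transcript MRPL49 had 9.08 in the genotype set. Not scaled for length, MRPL19 was the top member of the genotype set with a mean of 382 scaled CPM, and MRPL3 of the stress set with 386.

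For 5 genes the tables name different transcripts. MRPL47 held 3, 4 and 6 reads under mock, GD and TG in the stress set on transcript NM_177988.1. In the genotype set it held 211, 262, 150 and 162 reads (WT mock, deficient mock, WT GD, deficient GD) on NM_020409.2. MRPL49 held 6, 2 and 4 reads against 266, 286, 204 and 149, and MRPS18A 14, 10 and 10 against 202, 244, 185 and 225, each on different transcripts. MRPL55 held 6, 8 and 4 against 59, 66, 40 and 28, and MRPL24 14, 4 and 3 against 14, 20, 35 and 16. These 5 genes were not tested across the sets. Another 5 had a row in the stress set alone: MRPL10 (the base of the stalk) with 10, 9 and 16 reads, MRPL11 (its neighbour on the rRNA) with 14, 3 and 6, MRPL42 with 1, 0 and 1, MRPL52 with 0, 4 and 7, and MRPS14 with 28, 8 and 28. No fold is given for them. Between the 2 WT mock libraries the same transcripts also differed: over the 65 shared transcripts above 3 scaled CPM in both, the log2 of genotype set over stress set had a median of 0.16 and ran from -0.88 (MRPS35) to 1.5 (MRPS34).

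Under GD, 6 of the 68 tested members rose and 8 fell (edgeR's quasi-likelihood test over 6 mock and GD libraries, Benjamini-Hochberg adjusted p under 0.05 over 10368 transcripts). That is 20.6% of members beside 20.9% of all transcripts tested, of which 9.75% rose and 11.1% fell. The members as a group were therefore called no more often than other transcripts. MRPL45, MRPL1, MRPL37, MRPS35, MRPS5 and MRPS30 rose, and MRPL4, MRPL35, MRPL18, MRPL28, MRPL23, MRPS17, MRPS7 and MRPS34 fell. By symbol 3 of 41 MRPL members rose and 5 fell, and 3 of 27 MRPS members rose and 3 fell. By place in the ribosome (MRPS30 with the large subunit and MRPS36 left out) 4 of 42 large-subunit members rose and 5 fell, and 2 of 25 small-subunit members rose and 3 fell. The median log2 change was -0.13 for MRPL and 0.05 for MRPS members, against -0.02 for all transcripts. With library totals in place of TMM factors all 3 shifted down together, to -0.21, -0.03 and -0.10, so the sign of the MRPS median depends on the scaling. In the pair of the stress set alone the MRPS median was -0.10. Each of the 14 called members moved in 1 direction in all 3 pairs.

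**Figure D2:**
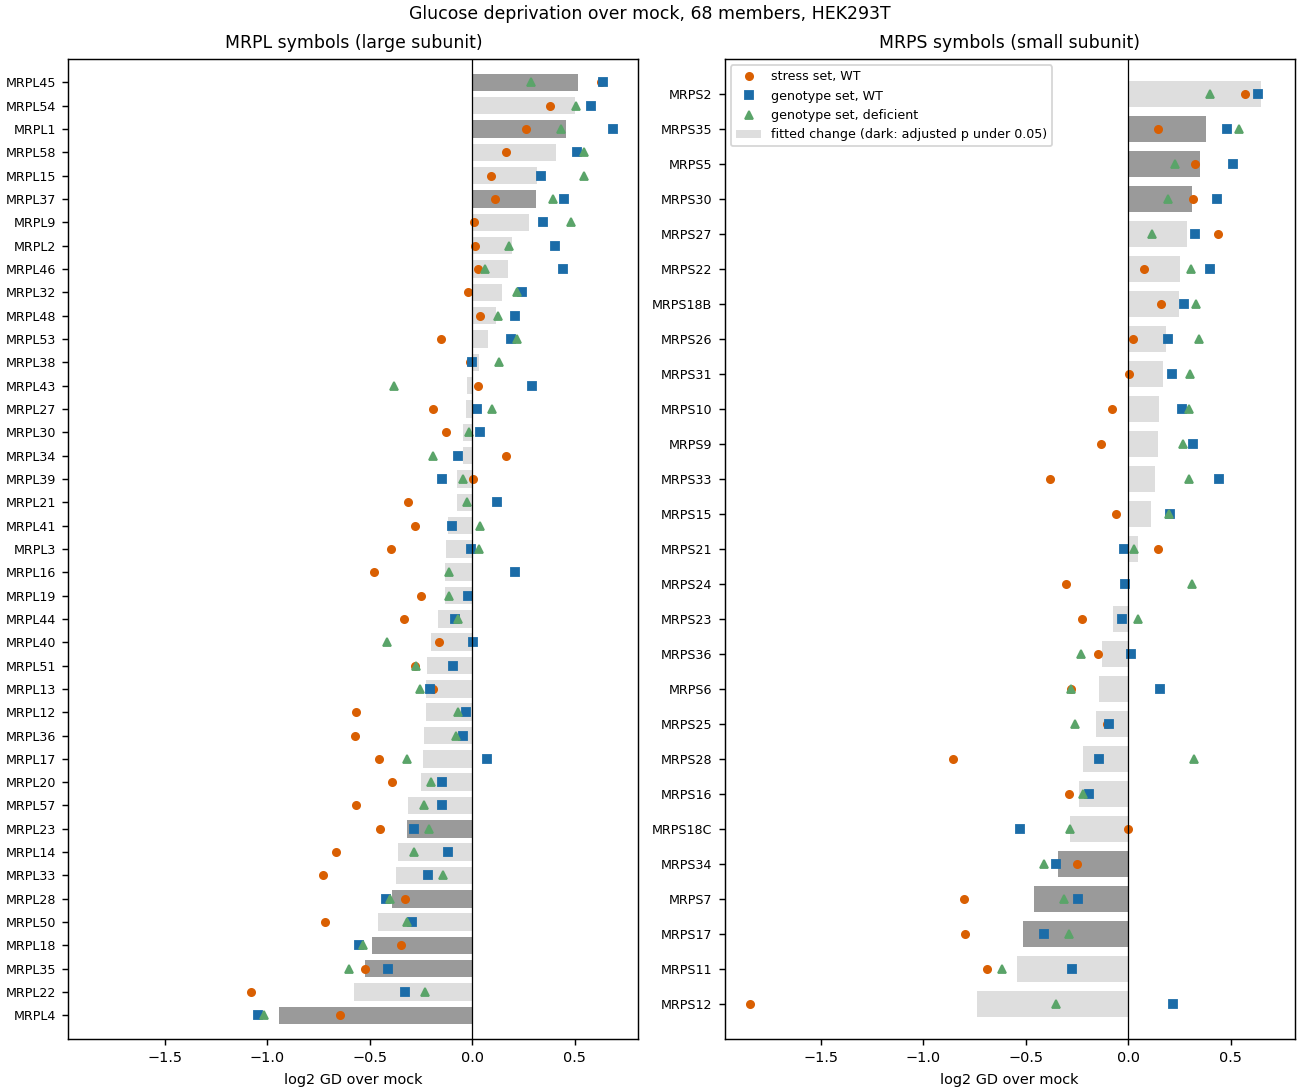
Log2 change of GD over mock for the 68 members counted on the same transcript in both tables, MRPL left and MRPS right, sorted by the fitted change (bars, dark where the adjusted p is under 0.05); markers are the 3 mock and GD pairs. MRPL4 stands lowest among the called members at -0.95 and MRPL45 highest at 0.51, and many stress-set markers lie left of the genotype-set markers.

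The largest fall among the called members was that of MRPL4 (uL4), a bacterial homolog whose loop lines the exit tunnel of the large subunit. Its mock level was 9.63 scaled CPM in the stress set, 18.96 in WT and 16.4 in deficient cells of the genotype set. After GD it was 6.04, 8.98 and 7.91. Every GD library lay below every mock library. The fitted log2 change was -0.95 (SE 0.191, edgeR adjusted p = 0.0092). In reads, WT cells of the genotype set went from 242 to 100 and deficient cells from 220 to 92, both past 2-fold, and WT cells of the stress set from 174 to 74. Its TG library held 214 reads, a ratio of 1.19 to mock with a counting interval of 0.971 to 1.46, so the direction under TG was not resolved by counting.

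The other falls in the large subunit were smaller and also of bacterial homologs. MRPL35 (bL35) went from 59.8 to 41.6 scaled CPM in the stress set, from 49.5 to 37.1 in WT and from 52.9 to 34.7 in deficient cells of the genotype set. MRPL18 (uL18), whose bacterial relative binds 5S rRNA, went from 73.2 to 57.4, from 75.4 to 51.3 and from 73.4 to 50.5 in the same order. In both, no GD value reached a mock value. The fitted changes were -0.52 (edgeR adjusted p = 0.0115) and -0.49 (adjusted p = 0.0108). MRPL28 (bL28) went from 78.8 to 62.6, from 151 to 113 and from 116 to 87.7, with a fitted change of -0.39 (adjusted p = 0.0148). Its groups overlapped, because its level in the genotype set was higher than in the stress set. MRPL23 (uL23), which stands at the tunnel exit, fell by 0.32 on the log2 scale (adjusted p = 0.0453). The antisense row MRPL23-AS1, no member, went the other way, from 31 to 77 reads in the stress set, from 56 to 183 in WT and from 20 to 105 in deficient cells; whether counting used strand is not given, so reads of the 2 may not be fully separated.

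In the small subunit MRPS17 (uS17), a core rRNA-binding protein, went from 39.4 to 22.5 scaled CPM in the stress set, from 31.9 to 23.9 in WT and from 30.2 to 24.7 in deficient cells of the genotype set. MRPS7 (uS7), which in bacteria nucleates the head of the subunit, went from 110 to 63.0, from 101 to 84.6 and from 118 to 94.9. Neither had a GD value within the mock range. The fitted changes were -0.51 (edgeR adjusted p = 0.0361) and -0.46 (adjusted p = 0.0269). MRPS34 (mS34), a mitochondria-specific protein needed for a stable small subunit RNA, went from 66.8 to 56.2, from 189 to 148 and from 157 to 118, a fitted change of -0.35 (adjusted p = 0.0239). It was the single mitochondria-specific protein among the 8 that fell, and its groups overlapped across sets.

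MRPL45 (mL45) rose most among the called members. It is a mitochondria-specific protein at the tunnel exit that helps anchor the ribosome to the inner membrane. It went from 81.4 to 126 scaled CPM in the stress set, from 67.7 to 105 in WT and from 75.5 to 92.0 in deficient cells of the genotype set, and every GD library lay above every mock library. The fitted change was 0.51 (SE 0.104, edgeR adjusted p = 0.0093). The pseudogene row MRPL45P2, no member, held 173 and 177 reads in mock and GD of the stress set, 125 and 124 in WT and 143 and 135 in deficient cells. How reads shared by near-identical copies were assigned is not given, so the MRPL45 value is uncertain to that extent.

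Among the other rises MRPL1 (uL1), the protein of the mobile L1 stalk where tRNAs leave, went from 25.5 to 30.6, from 21.1 to 34.2 and from 23.4 to 31.7 scaled CPM. All 3 GD values stood above all mock values, with a fitted change of 0.46 (edgeR adjusted p = 0.0484). MRPL37 (mL37) went from 232 to 250, from 271 to 370 and from 303 to 398, and MRPS30 (mL65), its relative in the same subunit, from 79.5 to 99.0, from 93.8 to 127 and from 114 to 131. Both groups of values overlapped across sets, while each pair moved up. The fitted changes were 0.31 for each (adjusted p = 0.0444 and 0.0433). MRPS5 (uS5), at the entry of the mRNA channel, rose by 0.35 (adjusted p = 0.0317) and MRPS35 (mS35) by 0.38 (adjusted p = 0.0416).

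**Figure D3:**
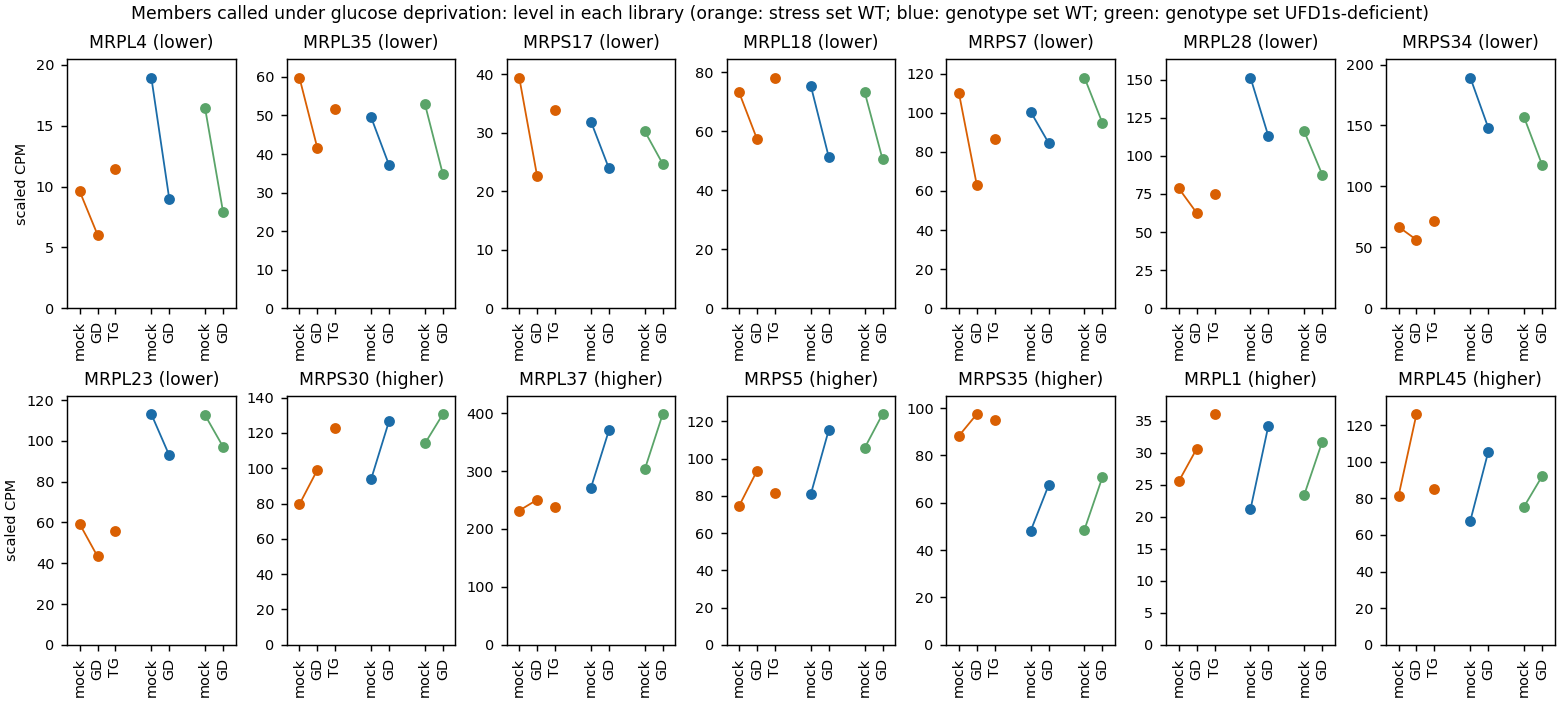
Level in scaled CPM (vertical axes from 0) of the 14 members called under GD, in each of the 7 HEK293T libraries; lines join a mock library with its GD library. The 8 members that fell open the series of panels with MRPL4 and the 6 that rose close it with MRPL45.

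Several members were near the threshold. MRPL54 (0.50, edgeR adjusted p = 0.05003), MRPL58 (0.41, adjusted p = 0.0538) and MRPS27 (0.29, adjusted p = 0.0530) had positive estimates, and MRPS11 (-0.54) and MRPL50 (-0.46), both at adjusted p = 0.0505, negative ones. MRPL58 (ICT1) is a release factor relative that frees peptides from stalled ribosomes, and MRPS27 has an RNA-binding repeat fold. MRPL22 (uL22), a tunnel protein, went from 312 to 98 reads in the stress set, past 2-fold lower, but from 148 to 102 and from 143 to 105 in the genotype set (-0.58, adjusted p = 0.0974). MRPL2 and MRPL27, proteins near the peptidyl transferase centre, had estimates of 0.19 and -0.03, and MRPL44, with an RNase III-like fold, -0.17. MRPL12 had -0.23, MRPS18B 0.25, MRPS18C -0.28 and MRPS36 -0.13. MRPS12 had -0.74 with an SE of 0.603, on at most 28 reads.

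Split by origin as read from the standard names, the bacterial homologs had a lower median than the mitochondria-specific proteins. The median log2 change was -0.19 for the 38 bacterial homologs tested and 0.12 for the 27 mitochondria-specific proteins. Of the former 2 rose and 7 fell, and of the latter 4 rose and 1 fell, beside 9.75% and 11.1% of all transcripts. With library totals MRPL45 was the single rise, so these counts of rises hold for TMM scaling and not for that setting. In the 3 pairs the medians were -0.30, -0.02 and -0.13 for the bacterial homologs (stress set WT, genotype set WT, genotype set deficient). The same order for the mitochondria-specific proteins gave 0.00, 0.21 and 0.13. By place in the ribosome, with MRPS30 in the large subunit, the medians were -0.23 against 0.03 in the large and -0.14 against 0.17 in the small subunit. The gap itself was not tested, and the classes were not drawn from values.

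**Figure D4:**
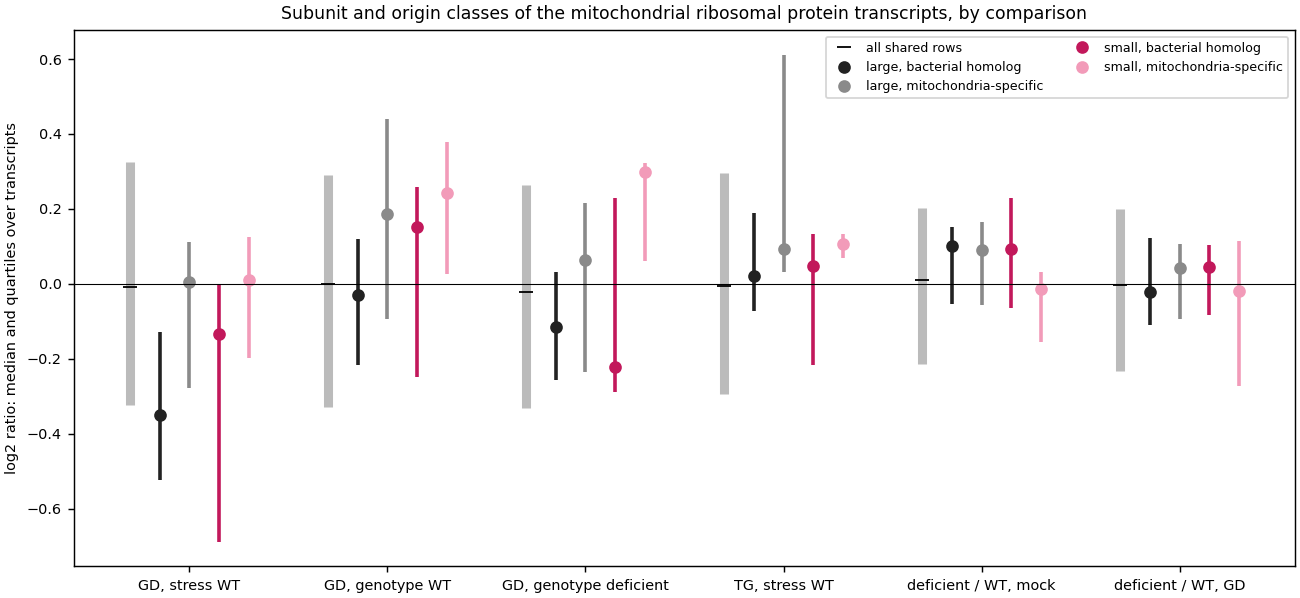
Median (points) and quartiles (lines) of the log2 ratio over transcripts, for all shared rows and for the members by origin and by place in the ribosome (MRPS30 with the large subunit), in the 3 GD pairs, the TG pair and the 2 genotype pairs. In the GD pair of the stress set the bacterial homologs of the large subunit have a median of -0.35, and in the 2 genotype pairs the class medians run from -0.02 to 0.10.

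Beside the 9.75% of all transcripts that rose and the 11.1% that fell, other groups had the following counts, with no test between groups. Cytosolic ribosomal protein transcripts had 24 rises among 75 tested (median 0.26), and nuclear-encoded respiratory chain transcripts 1 rise and 4 falls among 55 (median -0.10). Of 6 proteins under other symbols that belong to the mitoribosome or bind it, OXA1L, the insertase that docks the ribosome, rose by 0.51 (edgeR adjusted p = 0.0124). Among 11 translation factors MTIF2, the initiation factor, rose by 0.73 (adjusted p = 0.0161), and among 16 assembly and rRNA modification factors NOA1, an assembly GTPase, by 0.78 (adjusted p = 0.0019). Among 9 genes of mitochondrial transcription and RNA handling LRPPRC (0.55) and SUPV3L1 (0.46) rose and TRMT10C (-0.42) fell. Among 7 regulators of mitochondrial biogenesis MYC (0.45) and PPRC1 (0.34) rose. The counts of 1 among 6, 11 and 16 lie near the share of all transcripts.

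Noncoding and nuclear RNAs moved with GD too. All 4 with a shared row rose: GAS5 by 1.27, SNHG1 by 0.87, MALAT1 by 0.82 and NEAT1 by 0.61. Their part in the members' changes was not tested. The calls also rest on how the 3 pairs are pooled. Library totals in place of TMM gave 1 rise (MRPL45) and 13 falls, beside 683 rises among 2209 calls over all transcripts. The WT libraries of both sets alone gave 1 rise, again MRPL45, and 0 falls, and leaving out any 1 of the 4 genotype-set libraries gave at most 1 rise and 3 falls. Over all transcripts 490 were called in the WT libraries alone, and leaving out a deficient library nearly repeats that fit. Within the genotype set alone, or without either stress-set library, there were more calls: 27 members in the former (39.7%, 17 up and 10 down), beside 39% of all transcripts. The fits without a stress-set library nearly repeat that of the genotype set alone, because the set term takes up the stress-set library that is left.

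The GD response was also compared between the sets, and no larger a share of members than of all transcripts was called. The difference, stress set minus genotype set, was tested as an interaction in edgeR. The stress set gives this test a single mock and GD pair, so its own change is unreplicated and the spread comes from the 2 pairs of the genotype set (1 residual degree of freedom). It was lower in the stress set for 6 of 68 members and higher for 0 (adjusted p under 0.05), beside 10.4% of all transcripts (4.81% higher and 5.63% lower). The estimate was below 0 for 53 members, with a median of -0.27 against -0.01 for all transcripts. How many of all transcripts had an estimate below 0 is not given here. For MRPL12, the stalk protein, the stress set went from 210 to 141 scaled CPM, while WT cells of the genotype set went from 248 to 243 and deficient cells from 272 to 259. That is a difference of -0.53 (edgeR adjusted p = 0.0018). MRPL16, MRPS7, MRPL3, MRPS10 and MRPL37 were the others. The 6 differences ran from -0.54 for MRPL16 to -0.33 for MRPL37, and of these members DESeq2 called MRPL12 alone. The nuclear and noncoding RNAs differed the other way, with 3 of 4 higher in the stress set, and their part was not tested.

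The 3 pairs ordered the members alike in part. Over the 68 members Pearson's r of the log2 ratios was 0.82 between WT and deficient cells of the genotype set, and 0.59 and 0.58 between the stress set and each of these. Over all 10368 transcripts it was 0.67, 0.47 and 0.45. These are correlations across genes, which are not independent replicates, and each is a description without a test. Of large-subunit members 17 of 41 were lower under GD in all 3 pairs and 10 in none. Of small-subunit members the counts were 7 and 9 of 27, and of all transcripts 28.39% were lower in all 3 and 26.9% in none. Past 2-fold with 50 or more reads, members were rare. In the stress set MRPL22 was lower and 0 members were higher, beside 4.05% and 4.04% of all transcripts. In WT cells of the genotype set MRPL4 was lower and 0 were higher (5.07% and 2.87% of all), and in deficient cells MRPL4 and MRPL55 were lower and 0 higher (4.83% and 2.48% of all). MRPL55 had 66 reads in deficient mock and 28 in deficient GD.

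Under TG the members moved little. With 1 library per condition there is no test, and ratios carry counting intervals only. Of 65 members that had at least 50 reads in either library 1 was past 2-fold higher and 0 were lower, beside 5.08% higher and 3.77% lower of 9116 transcripts. The medians were 0.05 for the large and 0.10 for the small subunit against 0.01 for all transcripts; with library totals they were -0.06, -0.02 and -0.10. The counting interval lay above 1 for 22 members and below 1 for 12, and no such share is given here for all transcripts. With library totals 0 members were past 2-fold.

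MRPL54 (mL54) was the member past 2-fold, with 129 reads in mock and 281 in TG, a ratio of 2.11 (counting interval 1.71 to 2.62). In the GD library of the same set, which shares the mock library, it held 115 reads, or 9.39 scaled CPM against 7.14 in mock. The next highest TG ratios were those of MRPL58 (1.74), MRPL46 (1.67), MRPL39 (1.56), with a threonyl-tRNA synthetase-like fold, and MRPS30 (1.54). All 5 are mitochondria-specific proteins of the large subunit, as are MRPL44 and MRPL51 among the 5 lowest. Of the 17 shared members of that class 13 had a log2 ratio above 0, beside 44 of all 68. The lowest were MRPS6 (0.726), MRPL16 (0.742), which lies near the tRNA sites, MRPL44 (0.787), MRPS7 (0.787) and MRPL51 (0.788), and their intervals lay below 1. MRPS7 was low under GD as well, with 63.0 scaled CPM against 110 in mock and 86.7 in TG.

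**Figure D5:**
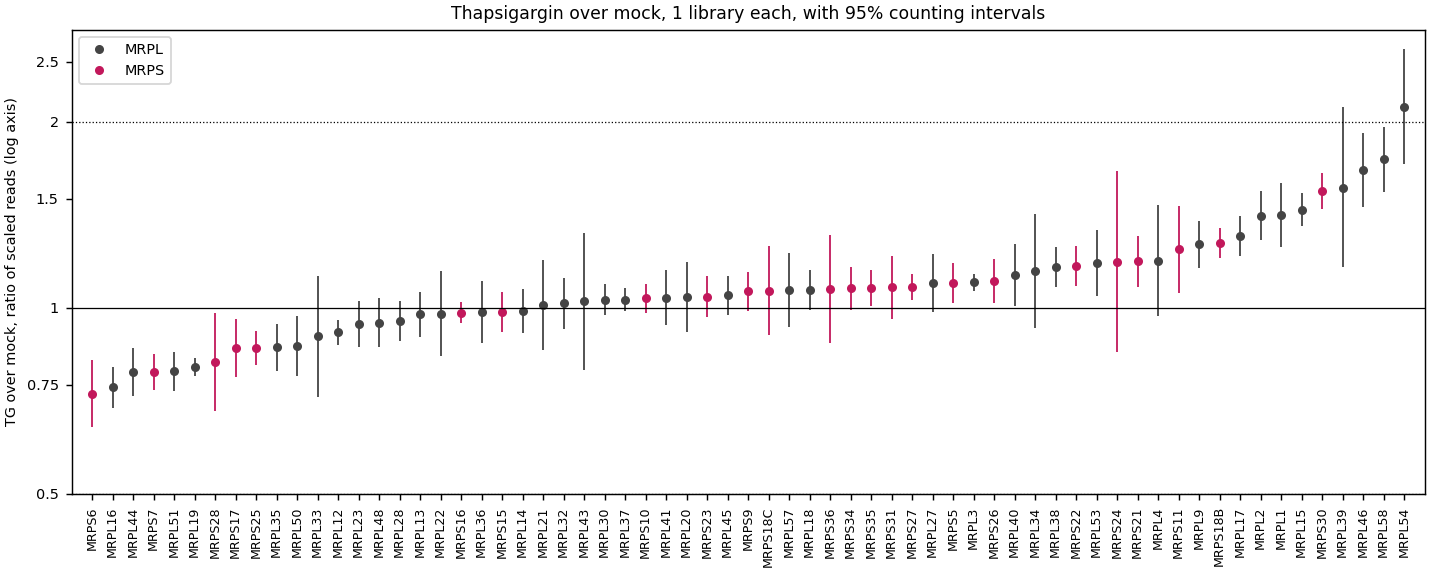
Ratio of scaled reads, TG over mock of the stress set (log axis), for 65 members that had at least 50 reads in either library, sorted; lines are 95% counting intervals and dotted lines mark 2-fold. MRPL54 at 2.11 is the one point past the upper dotted line, and MRPS6 at 0.726 is the lowest.

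MRPS11 and MRPL46 show how far neighbours can part. In RefSeq they lie head to head on chromosome 15, 320 bases from start to start, so that their promoter windows share 181 bases. MRPS11 (uS11) went from 272 reads in mock to 113 in GD and 349 in TG in the stress set. MRPL46 (mL46) went from 325 to 225 and 560. In scaled CPM, MRPS11 went from 15.1 to 9.22 under GD while MRPL46 went from 18.0 to 18.4. Their fitted GD estimates were -0.54 (edgeR adjusted p = 0.0505) and 0.18 (adjusted p = 0.464), neither called, and the difference between them was not tested. The pair was picked after its values were seen.

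Other genes of the pathway varied under TG, where 5146 of the 10368 shared transcripts had a log2 ratio above 0. Of 11 shared translation factor rows 9 were above 0 on the log2 scale and 2 were past 2-fold higher: MTRF1L, a release factor, with 24 reads in mock and 56 in TG, and C12orf65, a rescue factor, with 32 and 74. Of 16 assembly factor rows 14 were above 0 and 1 was past 2-fold, MPV17L2 with 231 and 612 reads. The 6 proteins under other symbols that belong to the mitoribosome or bind it were split, with 3 above 0 and 3 below. Above were GADD45GIP1 at 0.73, OXA1L at 0.19 and DAP3 at 0.06, and below were CHCHD1 at -0.21, PTCD3 at -0.14 and AURKAIP1 at -0.04. Cytosolic ribosomal protein and respiratory chain transcripts with 50 or more reads had medians of 0.00 and -0.06.

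Between deficient and WT cells no member was called (edgeR, adjusted p under 0.05), with 0 of 68 beside 1.11% of all transcripts. The stress set holds no deficient cells, so it enters this test mainly through the estimate of the spread. The common dispersion was 0.0192 in this fit and 0.0052 in that of the genotype set alone. The absence of calls thus does not show that the genotypes were alike. DESeq2 also called 0, and at an unadjusted p under 0.05 edgeR had 4 members, beside 14.2% of all transcripts. The medians were 0.03 for the large and 0.04 for the small subunit. The lowest estimates were MRPS33 (-1.40, SE 0.503), MRPL28 (-0.37, SE 0.109) and MRPL32 (-0.35, SE 0.138), a protein that the m-AAA protease processes, and the highest MRPL40 (0.32), MRPL14 (0.27) and MRPL54 (0.26). MRPL28 had 151 scaled CPM in WT mock and 116 in deficient mock, and 113 and 87.7 under GD, so it was lower in deficient cells at both conditions. MRPS34 followed the same course, from 189 to 157 in mock and from 148 to 118 under GD (-0.30, adjusted p = 0.237). MRPS33 rests on few reads, 34 and 14 in mock and 42 and 16 under GD.

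Fitting the genotype set alone, which leaves 1 residual degree of freedom, called 10 members (4 higher and 6 lower), beside 18.7% of all transcripts. Without either stress-set library in the fit over both sets, 3 or 4 were higher and 4 to 6 lower. With 1 stress-set library left out, the set term takes up the other, so these fits nearly repeat that of the genotype set alone. In the fit of the genotype set alone MRPL28, MRPS34, MRPL32, MRPS33, MRPL9 and MRPS27 were lower and MRPL3, MRPS5, MRPL14 and MRPL40 higher. Of the pathway lists TUFM, the mitochondrial elongation factor Tu, was lower in deficient cells in the fit over both sets (-0.55, SE 0.100, edgeR adjusted p = 0.0395). It had 4488 reads in WT mock and 3233 in deficient mock, and 4029 and 2870 under GD. Neither edgeR nor DESeq2 called any member, or any other transcript, for a GD response that differed by genotype. This test cannot decide the question, because deficient cells have a single mock and GD pair. Its spread comes from the WT pairs of the stress and genotype sets, so any difference between the sets enters it. The common dispersion in edgeR was 0.0257, beside 0.0052 in the fit of the genotype set alone. The median difference in GD response, deficient minus WT, was 0.08 for the large and 0.12 for the small subunit. A p over the threshold with 1 residual degree of freedom does not show that the responses were alike.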

How the data were processed

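RNA of HEK293T cells was measured in 7 libraries. N2a libraries of the series were not used here. Cells were lysed in TRIzol and libraries made with the TruSeq Ribo Profile kit, per the labels' protocols. Bowtie2, cutadapt, FastQC, bedtools and the build hg19 are named in the submitters' processing notes, without settings; how reads were counted, and whether by strand, is not given in the sources used here. Values in both deposited tables are raw counts of reads for each RefSeq transcript, which the authors did not normalize. Members and gene lists were chosen with earlier results of these data known.

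The 10368 transcripts in both tables were tested with edgeR 4.0.16 (quasi-likelihood, R 4.3.3) on the 6 libraries of mock and GD cells in a model of set, genotype and treatment (2 residual degrees of freedom), TMM factors, the default low-count filter, which removed 0 rows, and Benjamini-Hochberg adjustment at 0.05. The GD response by genotype and by set was tested as an interaction (1 residual degree of freedom each). Nothing in the labels says that libraries came from separate cultures, and each set holds every condition just 1 time, so p-values measure spread between the pairs, which may be technical.

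TG and single pairs have 1 library per condition. Their ratios are of TMM-scaled reads within a table, log2 ratios use a prior count of 5, and the count past 2-fold asks for at least 50 reads in either library. Exact conditional 95% intervals cover counting error only. Levels per kilobase use the length of the GENCODE transcript matched to the same RefSeq transcript version (65 members in the stress and 61 in the genotype set). Promoter sequences are RefSeq's on GRCh38.p14 and were matched by symbol, since the authors used hg19. Members named are the called ones, the extremes of each comparison and level, those in 1 table, and a list by role. Alternatives were RLE factors, library totals, DESeq2 1.42.0, other filters, parts of the libraries, and other subunit placements.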

Additional observations from a re-analysis of the deposited data

Results flagged for a closer look

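For 6 members the response to glucose deprivation differed between the stress set and the genotype set by the interaction in edgeR at an adjusted p under 0.05, each lower in the stress set. The stress set has a single pair, so its change is unreplicated and the spread is that of the 2 pairs of the genotype set; DESeq2 called 1 of the 6, MRPL12. The differences in log2 change were -0.54 for MRPL16, -0.54 for MRPS7, -0.53 for MRPL12, -0.43 for MRPL3, -0.38 for MRPS10 and -0.33 for MRPL37. MRPL16 went from 85.1 to 61.0 scaled CPM in the stress set, but from 94.5 to 109 in WT and from 111 to 103 in deficient cells of the genotype set. MRPL3, among the most abundant members, went from 405 to 308 in the stress set, from 334 to 332 in WT and from 373 to 382 in deficient cells. MRPS10 went from 148 to 140 against rises from 117 to 140 and from 127 to 156. The sets hold different libraries, and what else differed between them cannot be told apart from the set.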

How the results depend on the processing

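Under glucose deprivation (6 members higher, 8 lower), library totals in place of TMM gave 1 higher and 13 lower, the genotype set alone 17 higher, and the WT libraries alone 1 higher and 0 lower. The cause was not tested. Over all transcripts 2209, 4040 and 490 were called in these settings, beside 2164 in the main fit. With treatment as the only term (no replicate block, that is, without the set and genotype terms that tie the pairs) 0 were higher and 0 lower; the titles carry no replicate numbers. Leaving out each library in turn gave 0 to 17 higher and 0 to 10 lower. Without either stress-set library 17 were higher; without any 1 of the 4 genotype-set libraries at most 1 was higher and at most 3 lower. Leaving out a stress-set library nearly repeats the fit of the genotype set alone, and leaving out a deficient library that of the WT libraries alone. Of the 14 called members 14 were kept in the genotype set alone, 13 with RLE factors, 12 with DESeq2 and 9 with library totals. The large-subunit median stayed below 0 in these settings and the small-subunit median above 0, except with library totals (-0.03).

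For deficient over WT (0 and 0) the genotype set alone gave 4 higher and 6 lower, and leaving out a library 0 to 4 higher and 0 to 6 lower. The small-subunit median, 0.035, was 0.046 with 50 reads in every library and ran from -0.055 to 0.112 without each library. For the response by set, DESeq2 called 1 of 6. Alternatives for both interactions were chosen after the data were seen. For TG, library totals gave 0 and a 1.5-fold bound 5 members higher, and with library totals both medians fell below 0 (-0.06 and -0.02).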
